A study of Mus musculus with 20 samples.

Results

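RNA of the heart apex was compared between 5 mice given hTNNT2 Zeb2os and 5 mice given an hTNNT2 control, 10 of the 20 mice sequenced. Membership was read from the sample titles. All were uninjured wild-type mice of strain FVB/NRj, 28 days old (P28), injected retro-orbitally with AAV9, an adeno-associated virus serotype that reaches the heart well. The cargo in one group was Zeb2os, the noncoding RNA transcribed from the strand opposite Zeb2. The label names the cargo of the other group simply as a control. hTNNT2 stands for the human cardiac troponin T gene, whose promoter is active in heart muscle cells and drives little expression elsewhere. The control group held 0 males and 5 females, whereas the Zeb2os group held 3 males and 2 females. A response to Zeb2os and a difference between the sexes therefore cannot be told apart in any value given here. The data are the authors' own DESeq2 comparison, with 1 fold change, standard error (SE) and p-value per gene and no value per mouse.

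Zeb2 is a zinc-finger repressor that binds paired E-boxes and partners SMAD proteins. It is known for driving epithelial cells towards a mesenchymal state. Its antisense transcript is known from cultured human epithelial cells, where it keeps an intron in the 5′ end of the Zeb2 message that allows translation. The title of the series names cardiac healing, ZEB2 and the dedifferentiation of heart muscle cells as its subject, and these mice were uninjured.

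Zeb2os itself was by far the clearest difference. In the authors' deposited table Zeb2os rose by 4.53 on the log2 scale (SE 0.083, with the adjusted p listed as 0 by DESeq2), at a mean normalised count of 43281. It took 0.0844% of the summed mean counts of the authors' deposited table. The gene spans 45110707 to 45114087 of chromosome 2 (GRCm38, plus strand) and overlaps the minus-strand gene Zeb2, sharing 653 of its 1990 exonic bases (32.8%) with Zeb2 exons. GENCODE M21 lists 6 transcripts of it, of which the longest has 1736 bases in 3 exons, with 633 of those bases inside exons of Zeb2 on the other strand. The part of Zeb2os inside the vector was not given in the sources used here. Of 7 other tested genes within 2 Mb, 0 reached an unadjusted p under 0.05 per the authors' deposited table, against 3.92% of all genes tested. Gtdc1, a glycosyltransferase-like gene, stood at 0.10 (SE 0.069) and Zeb2 at 0.033 (SE 0.080), on the log2 scale of the authors' deposited table. Reads of the bases that Zeb2 and Zeb2os share are uncertain too, since the strand setting is unknown, and the Zeb2 value has to be read with that doubt. Arhgap15, which encodes a GTPase-activating protein for Rac, stood at 0.041 (SE 0.077) per the authors' deposited table.

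The scale of these values has to be known before any of them is read. Of the lowest mean counts per the authors' deposited table, the 15 values shared by the most genes were taken as levels, and they held 689 genes. Of these levels, 5 went with a positive log2 fold change, 5 with a negative one and 5 with exactly zero. A value of exactly zero is what a gene counted only in libraries of neither group gives. The mean count of a gene thus runs over more than the 10 mice compared. How many libraries were fitted cannot be read from these levels, since the number of levels was set in advance. The highest level was 1.87 times the lowest, which is the span of effective depth if each level stands for a separate library. Totals per library, not given in the sources used here, cannot be added. SEs did not exceed 0.0829 and fell towards 0 at low counts, with a median of 0.0073 below a mean count of 0.5 and 0.078 from 200 to 1000. Genes of the Y chromosome show what that means. No control mouse was male by its label, yet Ddx3y, an RNA helicase of the Y chromosome with a mean count of 2533, had a log2 fold change of 0.018 (SE 0.014) per the authors' deposited table. Its neighbours Eif2s3y at 0.019 (SE 0.014) and Uty at 0.018 (SE 0.014) per the authors' deposited table were as close to 0. Xist, the RNA of the inactive X, stood at -0.019 (SE 0.019) at a mean count of 29886 per the authors' deposited table. A log2 fold change near 0 with a small SE thus does not show that a gene was level between the groups. Fold changes are given below on this deposited scale alone.

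**Figure D1:**
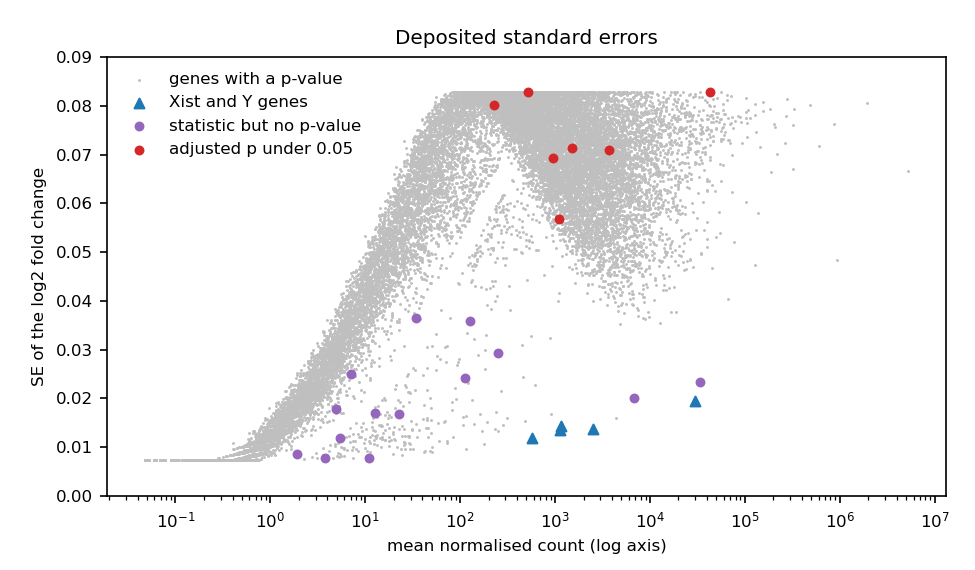
SE of the log2 fold change against the mean normalised count (log axis) for each gene with a p-value (grey), with Xist and 4 Y genes, the genes with a statistic but no p-value, and the 7 genes past the adjusted threshold marked. Most genes form an arch that ends at 0.0829, and Xist and the Y genes lie far beneath it in spite of high counts.

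Of 21461 genes with a p-value, 7 passed an adjusted p under 0.05 per the authors' deposited table (0.0326%), 5 higher (0.0233%) and 2 lower (0.00932%). Besides Zeb2os these were 4 genes that rose and 2 that fell, each by less than 0.40 on the log2 scale. Lyz2, which encodes the bacteria-killing lysozyme of myeloid cells, rose by 0.34 (SE 0.071, DESeq2 adjusted p = 0.0154, 95% interval 0.20 to 0.48) per the authors' deposited table. The interval of Lyz2 holds for the deposited scale alone, and how often such intervals cover the true change was not checked. Its near-identical neighbour Lyz1, the lysozyme of Paneth cells, was at a mean count of 7.70 against 3736 for Lyz2 per the authors' deposited table. How reads that match both were assigned is unknown, so the Lyz2 value carries that doubt. Itgbl1, a secreted protein with integrin-like EGF repeats, rose by 0.39 (SE 0.083, DESeq2 adjusted p = 0.0173) per the authors' deposited table. Lepr, which binds the fat hormone leptin, rose by 0.31 (SE 0.069, adjusted p = 0.0222) and the DNA polymerase of end joining Polq by 0.25 (SE 0.057, adjusted p = 0.0254) per the authors' deposited DESeq2 table. These 4 genes have diverse known roles, in immune defence, matrix, cytokine signalling and DNA repair.

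The 2 genes that fell both act in signalling. Adrb1, the beta-1 adrenergic receptor that raises heart rate and force, fell by 0.32 in log2 units (SE 0.071, adjusted p = 0.0254) per the authors' deposited DESeq2 table. Dusp5, a nuclear phosphatase that switches off ERK, fell by 0.37 in log2 units (SE 0.080, adjusted p = 0.0200) per the authors' deposited DESeq2 table. Of the 2473 exonic bases of Dusp5 in GENCODE M21, 547 (22.1%) overlap a gene of the minus strand, AC137853.2. With the strand setting of the counts not given in the sources used here, reads of that overlap are uncertain. Lyz2, Itgbl1, Lepr, Polq and Adrb1 share no exonic base with another gene of that annotation.

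**Figure D2:**
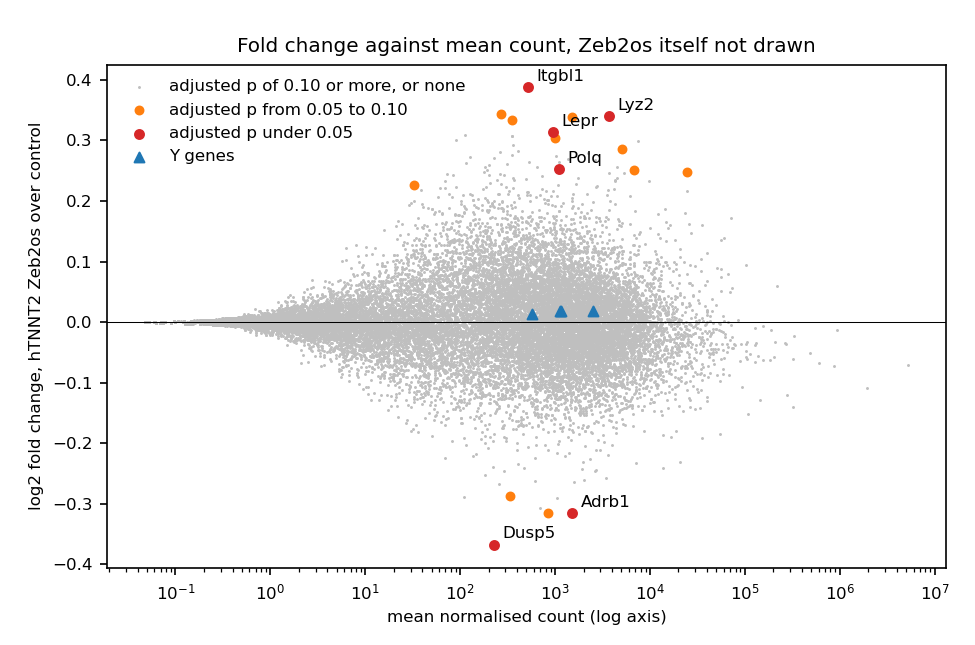
Log2 fold change of hTNNT2 Zeb2os over its control against the mean normalised count (log axis), 1 point per gene with a p-value, with Zeb2os left out because it lies far above at 4.53 and 10 genes of adjusted p from 0.05 to 0.10 in orange. The 6 other genes past the adjusted threshold sit at mean counts from 230 to 3736, and 4 Y genes lie at nearly 0.

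ZEB2 is known to bind the E2-box, CACCTG or its reverse complement CAGGTG, so the start sites of these genes were searched for it on both strands. Promoters of 300 bases that span the start (RefSeq, GRCm38.p6) were on file for 6 of the 7 genes, Zeb2os being the other one, and 1 of the 6, that of Lepr, holds these letters. Among 27025 promoters of the same length, 20.0% hold them. The share was 18.1% of 386 promoters of genes higher at an unadjusted p under 0.05 and 22.2% of 266 promoters of genes lower, against 19.3% of 16185 promoters of tested genes. A match of letters is a description and not a binding site. The promoter of Lepr (chr4:101717157-101717456, plus strand), with 2 matches in capitals, is shown beside that of Adrb1 (chr19:56721867-56722166, plus strand), the receptor gene that fell, which has 0 in this window.
Lepr: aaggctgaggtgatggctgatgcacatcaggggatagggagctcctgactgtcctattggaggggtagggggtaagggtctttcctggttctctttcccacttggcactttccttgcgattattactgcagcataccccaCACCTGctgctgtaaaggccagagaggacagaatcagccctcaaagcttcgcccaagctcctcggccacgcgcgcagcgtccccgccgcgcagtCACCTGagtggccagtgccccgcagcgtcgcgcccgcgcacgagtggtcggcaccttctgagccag
Adrb1: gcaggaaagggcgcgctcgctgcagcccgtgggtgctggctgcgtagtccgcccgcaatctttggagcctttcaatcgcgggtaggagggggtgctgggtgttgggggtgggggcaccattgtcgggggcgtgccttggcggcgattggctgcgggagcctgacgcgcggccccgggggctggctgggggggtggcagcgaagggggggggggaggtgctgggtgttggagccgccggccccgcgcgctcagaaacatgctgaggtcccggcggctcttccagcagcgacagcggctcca

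Behind the 7 genes, 99 had an adjusted p from 0.05 to 0.50 per the authors' deposited table, 67 of them higher and 32 lower. None of these passed the test, and their values are given as a description. Nearest to the threshold among the higher genes was Ackr4, a receptor that scavenges chemokines, at 0.33 (SE 0.079, DESeq2 adjusted p = 0.0562) per the authors' deposited table. Fam124a stood at 0.34 (SE 0.083) and Cyfip2, a subunit of the actin-branching WAVE complex, at 0.34 (SE 0.083) per the authors' deposited table. The plasma glutathione peroxidase Gpx3 stood at 0.29 (SE 0.071), the copper oxidase ceruloplasmin (Cp) at 0.25 (SE 0.064) and the acute-phase protease inhibitor Serpina3n at 0.28 (SE 0.075) per the authors' deposited table. Matrix proteins stood beside them, with the collagen-binding Dcn at 0.25 (SE 0.063), Ccdc80 at 0.30 (SE 0.081) and the crosslinking enzyme Loxl4 at 0.31 (SE 0.082) per the authors' deposited table. Of genes expressed by myeloid cells, Ms4a6c stood at 0.31 (SE 0.083), the acid-sensing receptor Gpr65 at 0.31 (SE 0.083) and the collagen-cleaving cathepsin Ctsk at 0.29 (SE 0.080) per the authors' deposited table.

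Among the lower genes of this range, Prr33 stood at -0.32 (SE 0.076, DESeq2 adjusted p = 0.0600) and the transporter-like Slc35g2 at -0.29 (SE 0.072) per the authors' deposited table. Pirt, a membrane regulator of TRP channels, stood at -0.31 (SE 0.082), the lipase inhibitor G0s2 at -0.29 (SE 0.081) and the water channel Aqp4 at -0.26 (SE 0.076) per the authors' deposited table. Adamts7, a protease of the matrix, stood at -0.23 (SE 0.063) per the authors' deposited table. The chromatin and transcription regulators Prdm16 and Kmt2b stood at -0.24 (SE 0.067) and -0.17 (SE 0.049) per the authors' deposited table. Grk3, a kinase that desensitises G-protein-coupled receptors, stood at -0.17 (SE 0.052) per the authors' deposited table. The cardiac transcription factor Hand2 at -0.25 (SE 0.077) and Mhrt, the noncoding RNA of the myosin heavy chain locus, at -0.26 (SE 0.082) had adjusted p of 0.380 and 0.400 per the authors' deposited DESeq2 table.

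The CMV comparison, in which a promoter active in most cell types drove the same cargo in 5 mice against 5 CMV controls, gives a second reading of these genes from other mice. There 1 gene of 21318 (0.00469%), Zeb2os, passed an adjusted p under 0.05 per the authors' deposited table. Of the 105 genes with an adjusted p under 0.50 besides Zeb2os, 43 (41.0%) had the same sign per the authors' deposited CMV table. At an unadjusted p under 0.05 stood 3 of the 105 (2.86%) with CMV, where 0.661% of all genes were higher and 1.01% lower in this way per the authors' deposited table. These were Gpr65 at 0.17 (SE 0.069), Lrrc17 at 0.14 (SE 0.071) and Polq, on the opposite side, at -0.12 (SE 0.063) with CMV per the authors' deposited table. The absolute log2 fold change with CMV was under 0.10 for 97 of the 105 genes per the authors' deposited table. Neither this share nor that of same signs was taken over all genes, so neither sets these genes apart from the rest. The hTNNT2 side of this setting was chosen for its size and the CMV side was not. SEs reached 0.0829 with hTNNT2 and 0.0713 with CMV, so the sizes of the 2 tables, and the differences tested next, are not on exactly the same scale. Males went from 2 of 5 to 1 of 5 in the CMV comparison, the other way from hTNNT2. The shares of all genes higher and lower with CMV were not taken, in total or by mean count. Counts by sign with CMV in the lists below therefore have no background beside them.

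**Figure D3:**
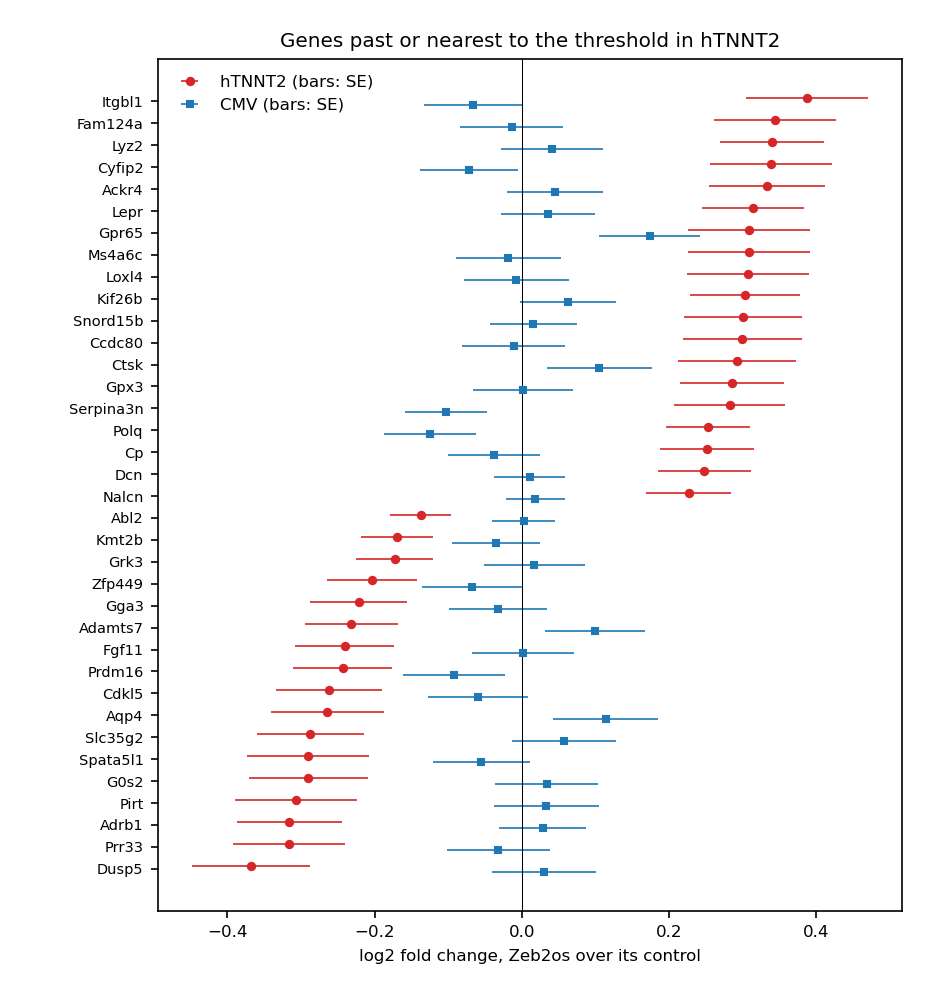
Log2 fold change of Zeb2os over its control with its SE (bars) for the 6 genes past the threshold with hTNNT2 and the 15 higher and 15 lower genes nearest to it. Red circles are hTNNT2, blue squares CMV, and the squares scatter on both sides of 0, with Gpr65 at 0.17 the highest of them.

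The difference between promoters was tested for each of 20754 genes by a normal test on the 2 deposited values. Zeb2os alone passed (0.00482% of genes), with a log2 fold change larger by 0.87 (SE 0.11, adjusted p = 4.02e-11) with hTNNT2, and 2.65% of genes had an unadjusted p under 0.05. Polq came nearest otherwise, with a difference of 0.38 (SE 0.085, adjusted p = 0.0869), followed by Itgbl1 at 0.45 (SE 0.11, adjusted p = 0.132). For Lyz2 the difference was 0.30 (SE 0.099) and for Lepr 0.28 (SE 0.094), both at an adjusted p of 1. For Adrb1 it was -0.34 (SE 0.092) and for Dusp5 -0.40 (SE 0.11), both at an adjusted p of 0.587. For these 6 genes no difference between the promoters passed the test, which does not show that they respond alike.

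Macrophages live in the healthy heart and clear debris, and Lyz2 is one of their genes. Of 25 macrophage and monocyte markers, 21 were higher, and 10 had an unadjusted p under 0.05 on that side, against 2.27% of all genes. Their median log2 fold change was 0.14, where that of all 21461 genes was -0.00080. Lyz2 alone passed the adjusted threshold. The scavenger receptor Mrc1 stood at 0.26 (SE 0.074) and the transglutaminase F13a1 at 0.25 (SE 0.080) per the authors' deposited table. Both are typical of resident macrophages, as are Folr2 at 0.19 (SE 0.081) and Timd4 at 0.18 (SE 0.083) per the authors' deposited table. Ccr2, the receptor that marks macrophages of recent monocyte origin, stood at 0.23 (SE 0.083) per the authors' deposited table. In bulk tissue, more cells of a type and more RNA per cell cannot be told apart. Of 24 lysosomal and phagocytic genes, 23 were higher (median 0.081) and 4 reached an unadjusted p under 0.05, among them the antibody receptor Fcgr3 at 0.21 (SE 0.081) per the authors' deposited table. With CMV the median of the macrophage list was 0.0016, and 0 of its 25 members reached an unadjusted p under 0.05 in either direction.

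Complement is the cascade of serum proteins that tags material for removal. Of 20 members 18 were higher (median 0.088), 6 of them at an unadjusted p under 0.05, against 2.27% of all genes, and 0 past the adjusted threshold. Serping1, which inhibits the first proteases of the cascade, stood at 0.24 (SE 0.069) per the authors' deposited table. The receptor C3ar1 stood at 0.21 (SE 0.082) and the terminal component C7 at 0.11 (SE 0.042) per the authors' deposited table. With CMV 15 of the 20 were lower, at a median of -0.029 and with 0 at an unadjusted p under 0.05.

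Lymphoid markers lay mostly on the lower side. Of all 21461 genes, 11009 were lower, 1.64% were lower at an unadjusted p under 0.05 and 2.27% were higher in this way. Of 14 markers of T and NK cells 10 were lower and 1, the cytotoxic T cell receptor Cd8a at -0.11 (SE 0.053), reached an unadjusted p under 0.05 per the authors' deposited table. All 8 measured markers of B and plasma cells were lower, with the B cell inhibitor Cd22 at -0.13 (SE 0.052) per the authors' deposited table. With CMV 13 of the 14 markers of T and NK cells and 7 of the 8 of B and plasma cells were higher. Median counts of these lists were 20.9 and 10.2, which lies where the deposited scale holds fold changes close to 0. Of 13 neutrophil and mast cell markers 8 were lower, and the mast cell tryptase Tpsb2 at -0.085 (SE 0.040) was the 1 member with an unadjusted p under 0.05 per the authors' deposited table. Interferon and DNA-sensing genes, which respond to viral nucleic acid, had 28 of 34 members higher (median 0.038), with Ifit2 at 0.17 (SE 0.078) and Ifit3 at 0.16 (SE 0.079) reaching an unadjusted p under 0.05 per the authors' deposited table. Of 17 genes of antigen presentation 11 were higher and 0 reached an unadjusted p under 0.05, with Psmb8 of the immunoproteasome at 0.14 (SE 0.081) per the authors' deposited table.

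**Figure D4:**
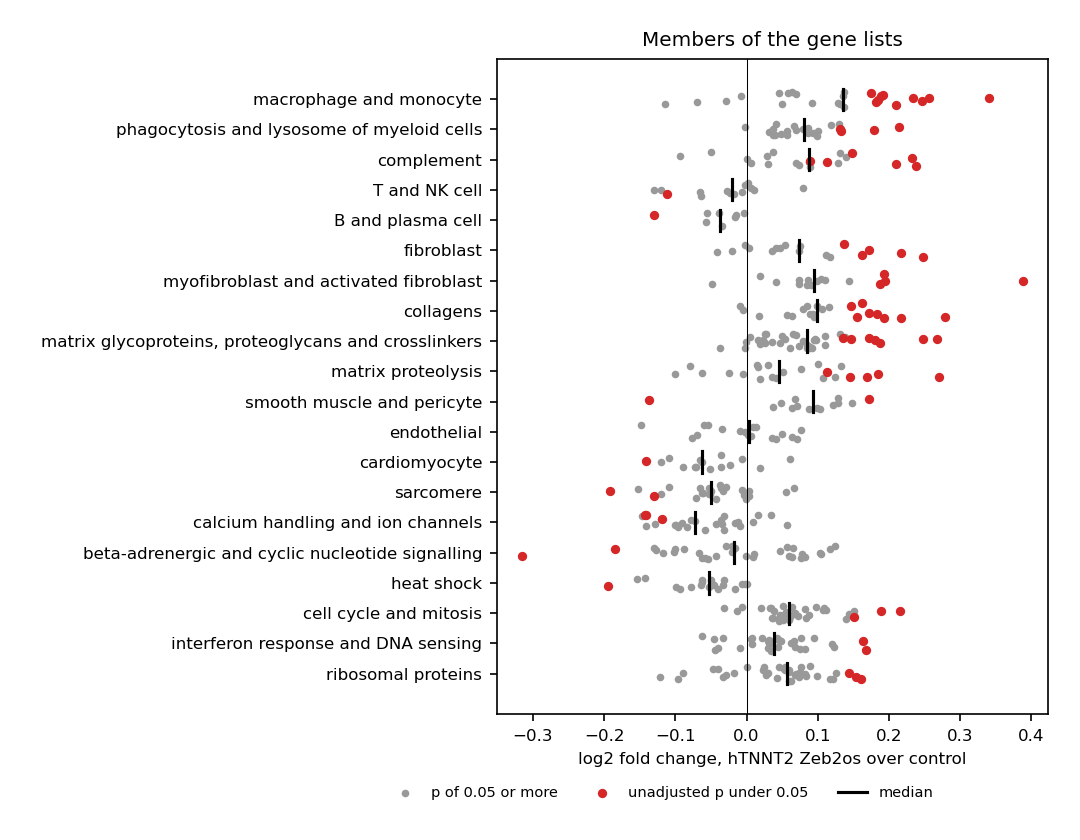
Log2 fold change of hTNNT2 Zeb2os over its control for each member of 20 gene lists (1 point per gene, red at an unadjusted p under 0.05, black bar the median, vertical scatter for legibility). Macrophage, complement, collagen and matrix members lie mostly right of 0, and cardiomyocyte, sarcomere, calcium handling and heat shock members mostly left of it.

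Fibroblasts make the collagen network of the heart. Of 17 fibroblast markers 14 were higher (median 0.074) and 5 (29.4%) reached an unadjusted p under 0.05, all on that side, where 2.27% of all genes lay (3.08% of those with a mean of at least 50). Of 21 collagen chains 19 were higher (median 0.099) and 8 (38.1%) reached it, again all higher and none past the adjusted threshold. The fibrillar chains Col1a2, Col3a1 and Col1a1 stood at 0.22 (SE 0.081), 0.17 (SE 0.082) and 0.16 (SE 0.082) per the authors' deposited table. The basement membrane chains Col4a4 and Col4a3, which share a promoter region, stood at 0.28 (SE 0.081) and 0.19 (SE 0.082) per the authors' deposited table. Of 40 glycoproteins, proteoglycans and crosslinkers 37 were higher (median 0.085) and 7 (17.5%) reached an unadjusted p under 0.05. The cell-matrix regulator Thbs2 stood at 0.27 (SE 0.079), its relative Thbs4 at 0.19 (SE 0.071) and the basement membrane linker Nid1 at 0.18 (SE 0.078) per the authors' deposited table. Proteases of the matrix and their inhibitors had 17 of 22 members higher, 5 of them at an unadjusted p under 0.05. The list leaves out Adamts7, given above, which lay on the lower side at a smaller p than any member. Serpine2, an inhibitor of thrombin and urokinase, stood at 0.27 (SE 0.083) and the aggrecan-cleaving Adamts5 at 0.18 (SE 0.078) per the authors' deposited table. With CMV 11 fibroblast markers were higher and 6 lower (median 0.011). Collagen chains there were 9 higher and 12 lower (median -0.0034). Glycoproteins, proteoglycans and crosslinkers were 21 higher and 19 lower with CMV (median 0.0030). Matrix proteases and inhibitors were 5 higher and 17 lower with CMV (median -0.023).

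Markers of activated fibroblasts were read apart from these. Of 16 such genes 15 were higher (median 0.095), 4 at an unadjusted p under 0.05, and Itgbl1 alone passed. The cartilage-type matrix protein Comp stood at 0.19 (SE 0.063) and the latent TGF-beta binding protein Ltbp2 at 0.19 (SE 0.066) per the authors' deposited table. With CMV 10 of the 16 activated fibroblast genes were higher and 6 lower, at a median of 0.0042. Genes of TGF-beta signalling itself divided, with 22 of 30 lower (median -0.038), 3 higher and 4 lower at an unadjusted p under 0.05. Over all genes these shares were 2.27% higher and 1.64% lower, the background for each list here. The pathway's inhibitor and target Smad7 stood at -0.20 (SE 0.077) and the transducer Smad3 at -0.17 (SE 0.072), while the stress cytokine Gdf15 stood at 0.19 (SE 0.063), per the authors' deposited table. Of 15 genes of mesenchymal transition, 7 were higher and 8 lower. The intermediate filament Vim at 0.17 (SE 0.081) and the gelatinase Mmp2 at 0.11 (SE 0.054) reached an unadjusted p under 0.05 per the authors' deposited table. Markers of the vessel wall (smooth muscle and pericytes) were higher in 13 of 14 cases (median 0.094), with the pericyte channel subunit Kcnj8 at 0.17 (SE 0.064) and Smtn of smooth muscle at -0.14 (SE 0.066) reaching an unadjusted p under 0.05 per the authors' deposited table. With CMV 13 of those 14 were lower, at a median of -0.061. Of 18 endothelial markers 10 were higher and 0 reached an unadjusted p under 0.05, with Vwf of the vessel lining at -0.15 (SE 0.083) and Pecam1 at 0.071 (SE 0.072) per the authors' deposited table.

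Cardiomyocyte genes checked the tissue, with Myh6 and Tnnt2 among the highest mean counts and a median of 270546 over 15 markers. Of these 13 were lower (median -0.063), and the calcium release channel Ryr2 at -0.14 (SE 0.067) was the single member with an unadjusted p under 0.05 per the authors' deposited table. Of 25 sarcomere genes 21 were lower (median -0.050), 2 at an unadjusted p under 0.05. These were Myh7, the slow myosin heavy chain of the fetal ventricle, at -0.19 (SE 0.082) and Nebl of the Z-disc at -0.13 (SE 0.056) per the authors' deposited table. Of 27 calcium handling and channel genes 23 were lower (median -0.072), 3 of them at an unadjusted p under 0.05, where 1.64% of all genes were lower in this way. The L-type channel Cacna1c stood at -0.14 (SE 0.069) and the T-type channel Cacna1g at -0.12 (SE 0.054) per the authors' deposited table. A trend with the mean count stood beside these values. Of 302 genes whose mean count reached 20000, 224 (74.2%) were lower, at a median of -0.028, against 51.5% of the 13358 genes with a mean of at least 50. Its part in the values of heart muscle genes was not tested. With CMV 14 of 15 cardiomyocyte markers and 23 of 25 sarcomere genes were higher, at medians of 0.039 and 0.041. Nuclear genes of the respiratory chain, given below, were also higher with CMV in 37 of 38 cases (median 0.048). No trend with the mean count was taken for CMV, so these counts cannot be set apart from one.

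**Figure D5:**
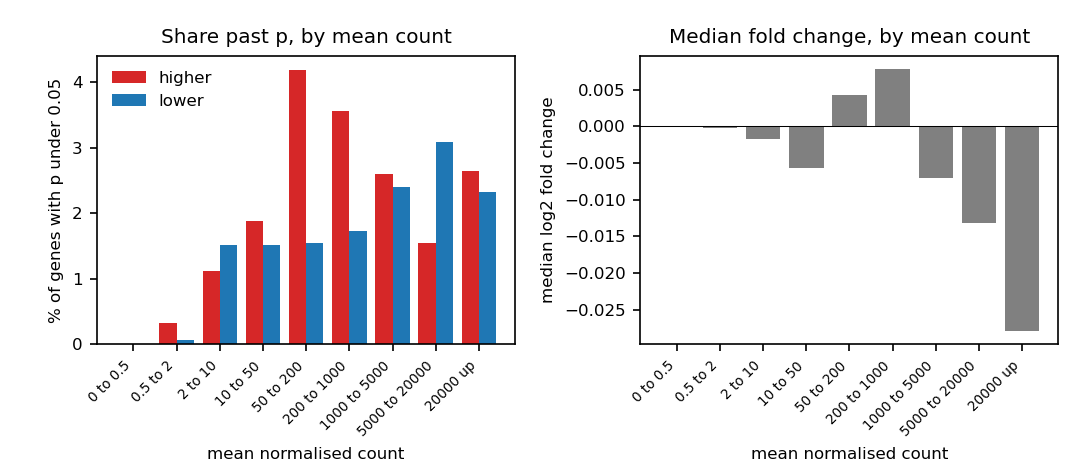
Left, the percentage of genes with an unadjusted p under 0.05 that were higher (red) or lower (blue) with hTNNT2 Zeb2os, and right, the median log2 fold change, both by mean normalised count. Higher genes peak at 4.19% for means of 50 to 200, and the median drops to -0.028 at means of at least 20000.

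Beside the contractile genes, the fetal and dedifferentiation list was balanced, with 11 of 24 members higher, 13 lower and 2 on each side at an unadjusted p under 0.05. Over all genes 2.27% were higher in this way and 1.64% lower, the background for each list here. The natriuretic peptide Nppb, a marker of wall stress, stood at 0.21 (SE 0.083) and Dab2, an endocytic adaptor, at 0.17 (SE 0.074) per the authors' deposited table. On the other side were Hand2 and Myh7, given above. Thymosins and prothymosins had 3 of 4 members higher and 0 at an unadjusted p under 0.05, with the highest, Tmsb4x, at 0.13 (SE 0.079) per the authors' deposited table. Heat shock proteins and their helpers, which refold proteins, were lower in 18 of 19 cases (median -0.053). The HSP90 partner Chordc1 at -0.20 (SE 0.069) was the 1 member with an unadjusted p under 0.05 per the authors' deposited table, and Hsph1 stood at -0.15 (SE 0.081). The median mean count of this list was 5352, and 863 of 1429 genes with means from 5000 to 20000 were lower. With CMV 10 of the 19 were higher and 9 lower. Genes of the unfolded protein response, which report stress in the secretory pathway, had a median of 0.0010, with 0 of 25 at an unadjusted p under 0.05.

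Each of the other called genes was read within its own pathway, and in none of these pathways did another member pass the adjusted threshold. Adrb1 was followed in beta-adrenergic signalling, in which receptors raise cyclic AMP until phosphodiesterases remove it. Of 32 members 14 were higher and 18 lower (median -0.018), and besides Adrb1 the alpha-1B receptor Adra1b at -0.18 (SE 0.070) reached an unadjusted p under 0.05 per the authors' deposited table. Adcy5, the main adenylyl cyclase of the heart muscle cell, stood at -0.13 (SE 0.074) per the authors' deposited table. Dusp5 was followed among 24 feedback genes and targets of ERK, where 2 were higher and 3 lower at an unadjusted p under 0.05. For this and each other list here, 2.27% of all genes were higher in this way and 1.64% lower. Myc, a driver of growth, stood at 0.23 (SE 0.083) and the ERK antagonist Spry1 at 0.19 (SE 0.070), opposite to Dusp5 and to Dusp1 at -0.16 (SE 0.081), per the authors' deposited table. Lepr was the only one of 24 genes of leptin and gp130 signalling with an unadjusted p under 0.05. The leptin-induced feedback inhibitor Socs3 and the transducer Stat3 stood at 0.059 (SE 0.083) and 0.056 (SE 0.066) per the authors' deposited table. Polq likewise was the only one of 29 genes of DNA end joining and recombination with an unadjusted p under 0.05, and 20 of the 29 were higher (median 0.047). Cell cycle genes were higher in 35 of 38 cases (median 0.060), 3 at an unadjusted p under 0.05, with the replicative helicase subunit Mcm4 at 0.22 (SE 0.081) and the nucleotide-making Rrm2 at 0.19 (SE 0.075) per the authors' deposited table. They were mostly higher with CMV too, 31 against 7 lower, at a median of 0.012.

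Energy metabolism was read in 3 lists. Of 38 nuclear genes of the respiratory chain 28 were lower (median -0.014) and 0 reached an unadjusted p under 0.05. Of 26 genes of glycolysis and pyruvate entry 19 were lower (median -0.037), again with 0 at an unadjusted p under 0.05. Median mean counts of the respiratory and glycolysis lists were 21731 and 16281. Of genes with means from 5000 to 20000, 863 of 1429 were lower, and of those from 20000 up, 224 of 302 (74.2%). The part of this trend in the values of both lists was not tested. Of 29 genes of fatty acid oxidation 17 were higher and 1, the carnitine transferase Cpt1a at 0.16 (SE 0.065), reached an unadjusted p under 0.05 per the authors' deposited table. Of 38 listed ribosomal proteins 30 were higher (median 0.057), 3 of them at an unadjusted p under 0.05, against 2.27% of all genes. Rps14 stood at 0.16 (SE 0.069) and Rpl41, which the list leaves out, at 0.25 (SE 0.073) per the authors' deposited table. The listed ribosomal proteins were mostly higher with CMV too, 28 against 10 lower, at a median of 0.023.

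Sex-linked genes were the last group. All 9 X-linked genes with a Y partner or known escape from inactivation were lower (median -0.092), and 2 of them reached an unadjusted p under 0.05, as 1.64% of all genes did on that side. These were the helicase Ddx3x at -0.23 (SE 0.077) and the histone demethylase Kdm5c at -0.23 (SE 0.082) per the authors' deposited table. The X chromosome as a whole did not follow them. Of its 439 genes whose mean count reached 50, 57.9% were higher, against 48.2% of 12909 autosomal genes, with medians of 0.013 and -0.0029. By chromosome, genes higher at an unadjusted p under 0.05 made up, over the autosomes and the X, from 1.79% (chromosome 5) to 5.18% (chromosome 13) of those with a mean of at least 50, where 3.08% of all such genes were higher, 2.1% lower and 5.17% either. Polq's chromosome 16 had the lowest share of lower genes, 0.704%, apart from the Y with 4 genes.

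A statistic without a p-value stood beside 14 genes, which DESeq2 does when 1 library lies far from the rest. Atrial genes were among them, although the apex is ventricular. The atrial myosin light chains Myl7 and Myl4 had mean counts of 111 and 251, and the atrial calcium pump inhibitor Sln 22.6, per the authors' deposited table. Atrial marker Nppa, which the ventricle also makes, had a p-value and stood at 0.047 (SE 0.072) per the authors' deposited table. Cartilage and tendon genes were the next kind, with Col11a1, Clec3a, Tnmd and Chodl, at mean counts from 1.93 to 34.2. Lars2 and Mir6236, at mean counts of 33659 and 6766 per the authors' deposited table, complete the abundant ones. Which library was out of line cannot be read from the table.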

How the data were processed

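Total RNA of the heart apex, was depleted of ribosomal RNA with the KAPA HyperPrep RiboErase kit, per the labels' protocols. Reads were trimmed with Trim Galore and compared with DESeq2 on GRCm38 or mm10, per the submitters' processing notes; the aligner, counter, strand setting and tool versions (not given in the sources used here) could not be checked. The authors deposited 1 table per promoter with a mean normalised count (a signal), a log2 fold change with its SE, a test statistic (a score), a p-value and an adjusted p-value. No value per mouse was used here, so no spread among mice can be given, and p-values measure the spread between libraries as the authors fitted it. Nothing in the labels says more of how mice were caged or processed.

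From the deposited tables, intervals (95%) were taken as the log2 fold change with its SE and a normal quantile. The hTNNT2 values were set against CMV by a normal test on the difference of the log2 fold changes, adjusted by Benjamini-Hochberg over 20754 genes. This test was also run on simulated data whose spread was drawn from the deposited SEs, as the test itself assumes. That run therefore cannot show how the test behaves on deposited values held near 0. The deposited statistic is minus the log2 fold change over its SE (largest deviation 6.39e-14). Python 3.11.15, pandas 2.3.3 and scipy 1.17.1 were used. Gene positions came from GENCODE M21. The comparison, its tests and the 51 gene lists (985 genes with a p-value) were chosen with earlier results of these data known, and 62 genes are in more than 1 list. Named were genes past the adjusted threshold, the 15 higher and 15 lower genes nearest to it, the 10 largest changes each way, up to 4 members per list with the lowest p, neighbours of Zeb2os, sex-linked genes, the clearest differences from CMV and genes without a p-value. Outside that rule and after their values were seen, Ccr2, Folr2, Timd4, C3ar1, Col1a1, Smad3, Pecam1, Socs3, Stat3, Nppa, Mhrt, Lrrc17 and Rpl41 were named. Mitochondrially encoded genes had 0 members in the table. Some items are not reported here.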

Additional observations from a re-analysis of the deposited data

Results flagged for a closer look

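The difference between the promoters passed its test for Zeb2os alone of 20754 genes. Its log2 fold change was 4.53 with hTNNT2 and 3.66 with CMV in the authors' deposited tables, a difference of 0.867 (SE 0.11, adjusted p = 4.02e-11 by a normal test on the 2 values). The mean count of Zeb2os was 43281 in the authors' deposited hTNNT2 table and 4138 in that of CMV. Both means include libraries outside the groups compared. The SE of Zeb2os, 0.0828 with hTNNT2 and 0.0711 with CMV, lay close to the highest of each table, 0.0829 and 0.0713. Since these highest SEs differ, the 2 log2 fold changes are not on exactly the same scale. The part of this in the difference was not tested.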

How the results depend on the processing

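With the authors' adjusted p under 0.05, 5 genes were higher and 2 lower. At a threshold of 0.01 there were 1 higher and 0 lower, and Zeb2os was the gene left; 488 genes were higher and 353 lower at an unadjusted p under 0.05 per the authors' deposited DESeq2 table. At 0.10 there were 13 and 4. Adjusting over genes whose mean count reached 50 gave 9 higher and 3 lower, the 5 further genes being Ackr4, Fam124a, Prr33, Cyfip2 and Kif26b. Adjusting over all genes with a p-value, centring on the median gene and leaving out the X and Y gave 5 to 6 higher and 2 lower. All 7 genes kept their call under these 4 alternatives at 0.05, the highest adjusted p being 0.0299 (Polq and Adrb1). Zeb2os was the 1 difference from CMV in each of the 2 alternatives run. Listed genes at an unadjusted p under 0.05 ranged from 67 to 73 higher and from 24 to 29 lower. Leaving out a mouse or refitting with sex could not be done, since no values per mouse were used here. No paired analysis was possible because the tables hold comparisons and no columns of single mice. Low counts and genes of high spread are held near 0 on the deposited scale, which limits what can be read from them.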

Other observations

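Other lists had up to 3 members at an unadjusted p under 0.05, where over all genes 2.27% were higher and 1.64% lower. Besides Itgbl1, which the list of integrins holds too, none of their members passed the adjusted threshold. In the renin-angiotensin, endothelin and natriuretic list 15 of 23 genes were higher, 2 higher and 1 lower at that p, with angiotensin-converting enzyme Ace at 0.22 (SE 0.074) and the vasoconstrictor peptide Edn1 at -0.19 (SE 0.082) in the authors' deposited table. Among Wnt, Notch and Hippo targets 19 of 30 were lower, with the Wnt antagonist Sfrp1 at 0.27 (SE 0.078) and the Notch target Hey1 at -0.20 (SE 0.078) in the authors' deposited table. Of 19 clock genes 13 were lower, with the repressors Nr1d1 at 0.19 (SE 0.083) and Cry1 at -0.19 (SE 0.082) on opposite sides in the authors' deposited table. Immediate early genes were lower in 16 of 25 cases (median -0.034), and with CMV in 22 of 25 (median -0.099). There 7 of them were lower at an unadjusted p under 0.05, as were 1.01% of all genes with CMV. Of 10 adipocyte markers 9 were higher (median 0.059), of 12 Schwann cell and neuron markers 8 (median 0.0079), and of 8 mesothelial markers 2 (median -0.0038). Of 9 genes of RNA quality and nuclear RNA 7 were lower (median -0.024) and 0 reached an unadjusted p under 0.05.

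Mean counts of the hTNNT2 table were 1.16 times those of the CMV table at the median of 13184 genes. Zeb2, whose reads in the bases shared with Zeb2os are uncertain, stood at 1.45, and 7 genes (0.0531%) had a ratio at least that high, among them Zeb2os at 10.5, the platelet genes Tubb1 at 1.54 and Ppbp at 1.52, and the proteoglycan Fmod at 1.51. These means were taken in tables normalised separately, over libraries that include some of neither group compared, and no test was made.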
